A study of Mus musculus with 7 samples.

Results

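The 39 Hox genes of the mouse were examined across 7 tissues, and each member was taken by its symbol, which holds Hox, a cluster letter from a to d and a number. They make up 39 of the 50226 gene names with a locus in the deposited table, and all 39 are among the 21312 protein-coding names. RNA was sequenced from cortex, liver, kidney, skeletal muscle and 3 adipose tissues, namely visceral (VAT), subcutaneous (SCAT) and interscapular brown (BAT). All 7 groups were wild-type C57BL/6 mice (C57BL/6N in the study's text) at 36 weeks of age on NCD, the control diet. There was 1 library per tissue, with no replicates, so no test was made and every difference below has no replicate check. Values are FPKM, fragments scaled for transcript length and library size, and without fragment counts the depth of a value is unknown. The labels do not say which visceral or subcutaneous depot, or which muscle, was taken.

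Hox genes encode homeodomain transcription factors that tell cells where along the head-to-tail axis of the embryo they lie. They sit in 4 clusters, and members with the same paralog number in different clusters descend from a common ancestor. Low numbers lie at the end of a cluster that is used in the hindbrain and neck, and high numbers at the end that is used in the lower trunk, the limbs and the genital region. Many adult cells, among them fibroblasts and fat cell precursors, keep part of the Hox pattern of the body region they came from, while the forebrain develops outside the Hox domain.

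HoxA holds 11 of the members on chromosome 6, HoxB 10 on chromosome 11, HoxC 9 on chromosome 15 and HoxD 9 on chromosome 2. RefSeq promoter windows of GRCm38.p6, which run from 250 bases before a start site to 50 bases after it, were matched for 22 of the 39 genes and gave 24 windows. The 4 windows shown belong to genes that the tissue differences below turn on: Hoxd8 and Hoxa10 for kidney and muscle, Hoxb8 for VAT and Hoxa5 for BAT. CpG dinucleotides are in capitals. Hoxd8 is at chr2:74704365-74704664 on the plus strand, Hoxa10 at chr6:52240805-52241104 on the minus strand, Hoxb8 at chr11:96281655-96281954 on the plus strand and Hoxa5 at chr6:52204538-52204837 on the minus strand.
Hoxd8: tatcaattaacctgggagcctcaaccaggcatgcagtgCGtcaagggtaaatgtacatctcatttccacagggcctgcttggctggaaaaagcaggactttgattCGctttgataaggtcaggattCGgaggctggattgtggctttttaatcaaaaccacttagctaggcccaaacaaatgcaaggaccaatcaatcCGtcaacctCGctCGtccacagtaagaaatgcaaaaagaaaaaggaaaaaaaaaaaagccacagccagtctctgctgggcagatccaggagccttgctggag
Hoxa10: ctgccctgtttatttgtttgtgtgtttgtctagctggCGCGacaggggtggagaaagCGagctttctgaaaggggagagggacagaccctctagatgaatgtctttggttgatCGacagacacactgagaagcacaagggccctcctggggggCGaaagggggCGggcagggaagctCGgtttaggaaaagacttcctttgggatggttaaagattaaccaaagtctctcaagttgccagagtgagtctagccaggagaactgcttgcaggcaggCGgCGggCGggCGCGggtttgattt
Hoxb8: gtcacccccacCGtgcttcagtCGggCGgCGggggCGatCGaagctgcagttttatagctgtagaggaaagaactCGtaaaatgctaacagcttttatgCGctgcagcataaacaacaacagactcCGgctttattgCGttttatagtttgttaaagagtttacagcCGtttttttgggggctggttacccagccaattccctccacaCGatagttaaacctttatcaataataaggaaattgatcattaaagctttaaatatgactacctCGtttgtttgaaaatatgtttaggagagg
Hoxa5: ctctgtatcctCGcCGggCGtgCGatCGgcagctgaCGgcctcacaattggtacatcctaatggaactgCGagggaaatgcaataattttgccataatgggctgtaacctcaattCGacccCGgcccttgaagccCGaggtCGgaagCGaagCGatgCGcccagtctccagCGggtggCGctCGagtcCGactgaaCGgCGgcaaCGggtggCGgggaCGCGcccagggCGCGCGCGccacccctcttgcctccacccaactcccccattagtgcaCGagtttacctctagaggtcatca
The Hoxd8 window holds 6 CpG, the Hoxa10 window shown 12, that of Hoxb8 13 and that of Hoxa5 29. A second Hoxa10 window, at chr6:52234890-52235189, is not shown and holds 21. Over the 24 Hox windows the median was 14.5 CpG, with a range from 4 to 45, against a median of 7 over 32851 windows of all genes. The letters CATAAA, as in a caudal (CDX) site, were found on either strand in 5 Hox windows (20.8%) and in 11.9% of all windows, and the Hoxb8 window holds 2 of them. The letters TGATNNAT, as in a PBX-HOX site, were found in 4 Hox windows (16.7%) against 8.85%. The letters AGGTCA, as in a nuclear receptor half-site, were found in 7 Hox windows (29.2%) against 16.3%, among them those of Hoxd8 and Hoxa5. These are descriptions of letters in a window and were not linked to the levels.

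The labels of the libraries were held against marker genes. Ucp1, the uncoupling protein of brown fat, was at 6552 FPKM in BAT, the kidney tubule gene Umod at 929.5 in kidney, the synaptic gene Snap25 at 215 in cortex, the apolipoprotein gene Apoa1 at 2521 in liver and the creatine kinase gene Ckm at 8592 in muscle. Adipoq, which encodes adiponectin, was at 330.2 in VAT, 110 in SCAT and 258 in BAT. Further cell types stood out in the fat libraries. In VAT, 5 of 8 epididymis markers were at least 4-fold above every other tissue, with Crisp1 at 1386 FPKM, and the 8 summed to 2679 FPKM in VAT and to between 0 and 2.02 elsewhere, although Lcn9 and Cst11 were listed at 0 and Lcn8 was at 0.0386 in VAT, below its 0.344 in liver. The liver markers Alb, Ttr and Apoa1 summed to 300.3 FPKM in VAT, with Alb at 253. In SCAT, 6 of 6 lymphocyte markers summed to 141 FPKM against at most 4.91 elsewhere, and 6 of 6 pancreas acinar markers summed to 129 against at most 6.00. Ckm in BAT was 166 FPKM, or 1.93% of its level in muscle. The part of these cells in the Hox values below was not tested, and in bulk RNA fewer cells of a type and less RNA per cell cannot be told apart.

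Hox RNA was found in kidney, muscle and fat, and next to none in liver and cortex. Counting a gene as detected at 1 FPKM or more, kidney had 14 of the 39 Hox genes, VAT 10, skeletal muscle 7, SCAT 5, BAT 5, liver 0 and cortex 0. The same minimum was passed by 51.8% of protein-coding names in kidney, 52.2% in VAT, 50.9% in skeletal muscle, 50.0% in SCAT, 50.3% in BAT, 49.5% in liver and 52.5% in cortex, a larger share than that of the Hox genes in each of the 7 libraries. Because some names share a locus, the detected genes correspond to 11 loci in kidney, 8 in VAT, 5 in muscle, 3 in SCAT and 4 in BAT. The summed FPKM of all Hox loci, each counted once, was 51.0 in kidney, 33.1 in skeletal muscle, 27.7 in VAT, 13.2 in BAT, 10.3 in SCAT, 1.38 in liver and 0.0444 in cortex. In cortex 29 of the 39 genes were listed at 0, and the highest value was 0.0109 FPKM, for Hoxa7. In liver 15 were listed at 0, and the highest value was 0.599 FPKM, for Hoxb3.

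**Figure D1:**
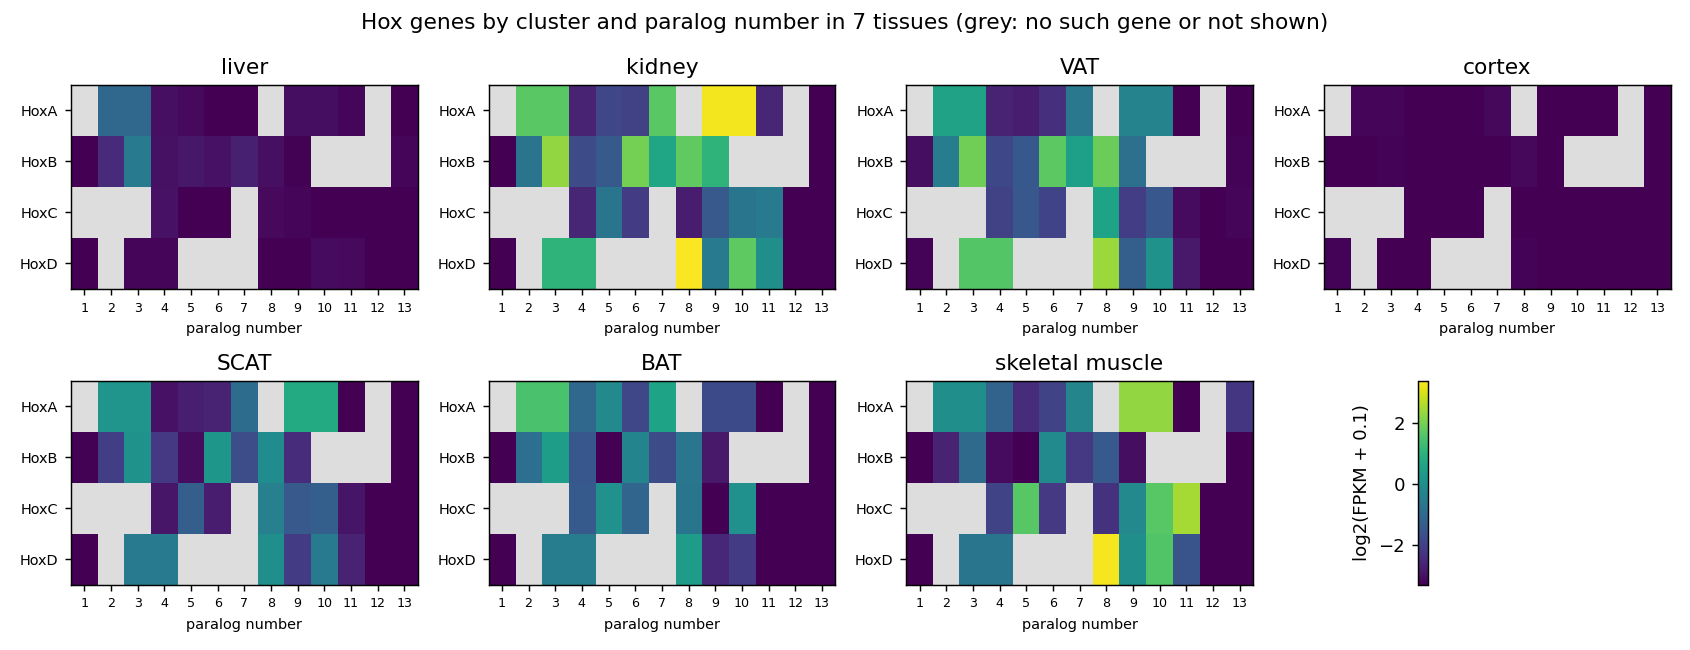
Colour gives log2(FPKM + 0.1) of each Hox gene in 1 library per tissue, with clusters in rows, paralog numbers from 1 to 13 in columns and grey where there is no such gene or its value is not shown. Kidney has bright cells among paralogs 2 to 4 and 6 to 10, skeletal muscle at Hoxc5 with Hoxc10 (1 locus) and among paralogs 8 to 11, and liver and cortex are dark throughout apart from paralogs 2 and 3 in liver.

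Of the 39 members, 18 reached 1 FPKM in at least 1 tissue, 18 were above 0 in at least 1 tissue but below 1 FPKM in all, and 3 were listed at 0 everywhere. The 3 are Hoxc12, Hoxd12 and Hoxd13, of which Hoxd13 is known for patterning digits and genitalia. Of the 18 that reached 1 FPKM, 11 were highest in kidney, 4 in VAT and 3 in muscle. Among the 18 that were above 0 but did not reach 1 FPKM, the maxima ran from 0.00521 FPKM for Hoxd1 to 0.925 for Hoxd11. Kidney was the tissue with the highest value for most detected members, and neither liver, cortex, SCAT nor BAT was highest for any of them.

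The anterior genes, paralogs 1 to 3, were detected in kidney (4 of 8), VAT (4 of 8), BAT (3 of 8) and SCAT (2 of 8). Hoxa2, which gives the hyoid arch its identity, and Hoxa3, which is needed for thymus and parathyroid, share a merged locus with Gm28308 and therefore have 1 value. Their locus was at 0.00678 FPKM in cortex, 0.383 in liver, 3.08 in kidney, 0.917 in muscle, 1.37 in VAT, 1.04 in SCAT and 2.67 in BAT. It was the highest Hox value in BAT, where it came close to the kidney level. Hoxb3, another gene of the hindbrain and pharyngeal arches, was at 0.00461 FPKM in cortex, 0.599 in liver, 4.84 in kidney, 0.397 in muscle, 3.76 in VAT, 0.967 in SCAT and 1.23 in BAT. By the listing order of the table, which stands in for a strand column, this locus lies opposite to Hoxb3, and it also carries the name of the antisense gene Hoxb5os, and in it kidney and VAT stood above the other 5 libraries. The locus on Hoxb3's own strand was at 0 FPKM in cortex, 0.187 in liver, 2.27 in kidney, 0.734 in muscle, 0.901 in VAT, 0.407 in SCAT and 1.06 in BAT. There kidney was again highest, but VAT fell below BAT. The merged locus of Hoxd3, Hoxd4 and Gm28230, of which the Hox genes pattern the neck vertebrae, was at 0 FPKM in cortex, 0.00727 in liver, 1.99 in kidney, 0.511 in muscle, 2.94 in VAT, 0.575 in SCAT and 0.607 in BAT. VAT led here, and SCAT, BAT and muscle lay close together. Hoxb1, an early gene of the hindbrain, stayed at or below 0.0197 FPKM and Hoxd1 at or below 0.00521 in all 7 tissues, and Hoxb2 reached 0.613 in VAT.

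The middle genes, paralogs 4 to 8, were detected in kidney (6 of 15), VAT (6 of 15), muscle (2 of 15), BAT (2 of 15) and SCAT (1 of 15). Hoxd8, a gene of the trunk, was the highest Hox gene in kidney, VAT and skeletal muscle. It was at 0.00483 FPKM in cortex, 0 in liver, 10.1 in kidney, 9.86 in muscle, 5.10 in VAT, 0.912 in SCAT and 1.21 in BAT. Kidney and muscle differed by only 0.03 on the log2(FPKM + 0.1) scale, and both lay well above BAT and SCAT. Hoxa7, another trunk gene, was at 0.0109 FPKM in cortex, 0 in liver, 3.08 in kidney, 0.736 in muscle, 0.544 in VAT, 0.423 in SCAT and 1.40 in BAT. Here BAT was second to kidney.

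Hoxb6, Hoxb7 and Hoxb8 were highest in kidney and VAT. Hoxb8, a gene of the trunk and of blood progenitors, was at 0.00974 FPKM in cortex, 0.0206 in liver, 3.27 in kidney, 0.268 in muscle, 3.64 in VAT, 0.865 in SCAT and 0.523 in BAT. Hoxb6, known from the lateral mesoderm and limb bud, was at 0 FPKM in cortex, 0.0254 in liver, 3.87 in kidney, 0.818 in muscle, 3.17 in VAT, 1.08 in SCAT and 0.718 in BAT. Hoxb7, whose promoter is widely used to mark the ureteric bud, was at 0 FPKM in cortex, 0.0497 in liver, 1.49 in kidney, 0.117 in muscle, 1.29 in VAT, 0.201 in SCAT and 0.193 in BAT. In all 3 the kidney and VAT values lay near each other and above those of the other libraries. Hoxc8, a gene of the thoracic region, followed another order, with 0 FPKM in cortex, 0.0132 in liver, 0.0463 in kidney, 0.0962 in muscle, 1.40 in VAT, 0.666 in SCAT and 0.510 in BAT. It was higher in each of the 3 fat libraries than in kidney or muscle. Hoxa5, which is needed for lung and airway development, was at 0 FPKM in cortex, 0.0120 in liver, 0.168 in kidney, 0.0795 in muscle, 0.0441 in VAT, 0.0468 in SCAT and 0.819 in BAT. BAT was highest, but below the detection minimum. Hoxa4, Hoxa6, Hoxb4, Hoxb5, Hoxc4 and Hoxc6 stayed at or below 0.382 FPKM in all 7 tissues.

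The posterior genes, paralogs 9 to 13, were detected in muscle (5 of 16), kidney (4 of 16) and SCAT (2 of 16), and in neither VAT nor BAT as deposited, although 11 Hox genes in place of 10 passed the minimum in VAT after median ratio scaling, the added one being Hoxd10. Hoxa9, a regulator of blood progenitors, and Hoxa10, which patterns the lumbar spine and the female reproductive tract, share the locus that gave the highest value of both. That locus was at 0.00142 FPKM in cortex, 0.0192 in liver, 9.59 in kidney, 4.82 in muscle, 0.709 in VAT, 1.64 in SCAT and 0.185 in BAT. Kidney and muscle were high, and among the fat depots SCAT was above VAT and BAT. Hoxd10, a gene of the lumbar region and hindlimb, was at 0 FPKM in cortex, 0.0153 in liver, 3.21 in kidney, 2.89 in muscle, 0.989 in VAT, 0.573 in SCAT and 0.129 in BAT. Hoxb9, a thoracic gene, was at 0.00119 FPKM in cortex, 0.00249 in liver, 1.97 in kidney, 0.0195 in muscle, 0.456 in VAT, 0.0819 in SCAT and 0.0366 in BAT. Kidney stood apart from muscle for Hoxb9, while for Hoxd10 they were close at this locus, which lies opposite to the gene and also carries the name Gm28793. The locus on Hoxd10's own strand, merged with Hoxd11, was at 0.925 FPKM in kidney and 0.237 in muscle, a log2 difference of 1.61.

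Several HoxC genes were highest in muscle. Hoxc11, a gene of the hindlimb and kidney, took its value from a locus opposite to the gene, which was at 0 FPKM in cortex, 0 in liver, 0.588 in kidney, 5.57 in muscle, 0.0151 in VAT, 0.0297 in SCAT and 0 in BAT. With a log2 difference of 3.04 to kidney, the next tissue, Hoxc11 in muscle was the 1 Hox gene that lay at least 4-fold above all 6 other tissues, a call that was lost on its own strand, where it was at 0.424 FPKM in muscle. By the same rule 2.35% of protein-coding names were enriched in muscle. No Hox gene was enriched in any of the other 6 tissues, where the rule called 5.74% of names in cortex, 2.36% in liver, 1.73% in kidney, 1.35% in SCAT, 0.831% in VAT and 0.511% in BAT. In kidney 2 Hox genes were enriched without the VAT library and 1 with annotated strands alone. The merged locus of Hoxc5 and Hoxc10, the latter a gene of the lumbar region and hindlimb, was at 0 FPKM in cortex, 0 in liver, 0.514 in kidney, 3.04 in muscle, 0.255 in VAT, 0.308 in SCAT and 0.955 in BAT. Muscle was highest and BAT next. Hoxc9 reached 0.793 FPKM and Hoxd9 0.916 in muscle, their highest tissue, and Hoxd11, a gene of kidney and forelimb development, reached 0.925 in kidney, at the locus it shares with Hoxd10. At the far end of the clusters, Hoxa13 was listed above 0 in muscle only, at 0.108 FPKM, Hoxb13, known from prostate and tail, stayed at or below 0.00908, and Hoxc13, known from hair and nails, at or below 0.00854.

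The position along the clusters can be put into 1 number per tissue, the share of the summed Hox FPKM that came from paralogs 9 to 13. It was 51.0% in muscle, 34.0% in kidney, 27.7% in SCAT, 9.69% in VAT, 5.52% in liver and 3.45% in BAT, and was not computed for cortex, where the sum was under 1 FPKM. The share was lowest in BAT, the depot between the shoulder blades, whose highest detected paralog was 8, as in VAT, where Hoxd10 at 0.989 FPKM lay just under the minimum and passed it after median ratio scaling. In BAT the locus of Hoxc5 and Hoxc10 also lay just under the minimum, at 0.955 FPKM. The highest detected paralog was 10 in kidney and SCAT and 11 in muscle, and with annotated strands alone 10 in kidney and muscle, 8 in VAT and BAT and 3 in SCAT. The locus of Hoxc5 and Hoxc10 spans the boundary and was left out of the share. Counting it with the posterior genes raised the BAT share to 10.4%, beside 10.5% in VAT and above 5.52% in liver, so BAT was then not the lowest. Counting paralog 8 as posterior raised the shares of kidney to 60.6%, SCAT to 52.0%, VAT to 46.6%, BAT to 21.8% and muscle to 85.0%, mostly through Hoxd8 and Hoxb8, and muscle stayed highest and BAT lowest of these 5, with liver below them at 7.98%.

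**Figure D2:**
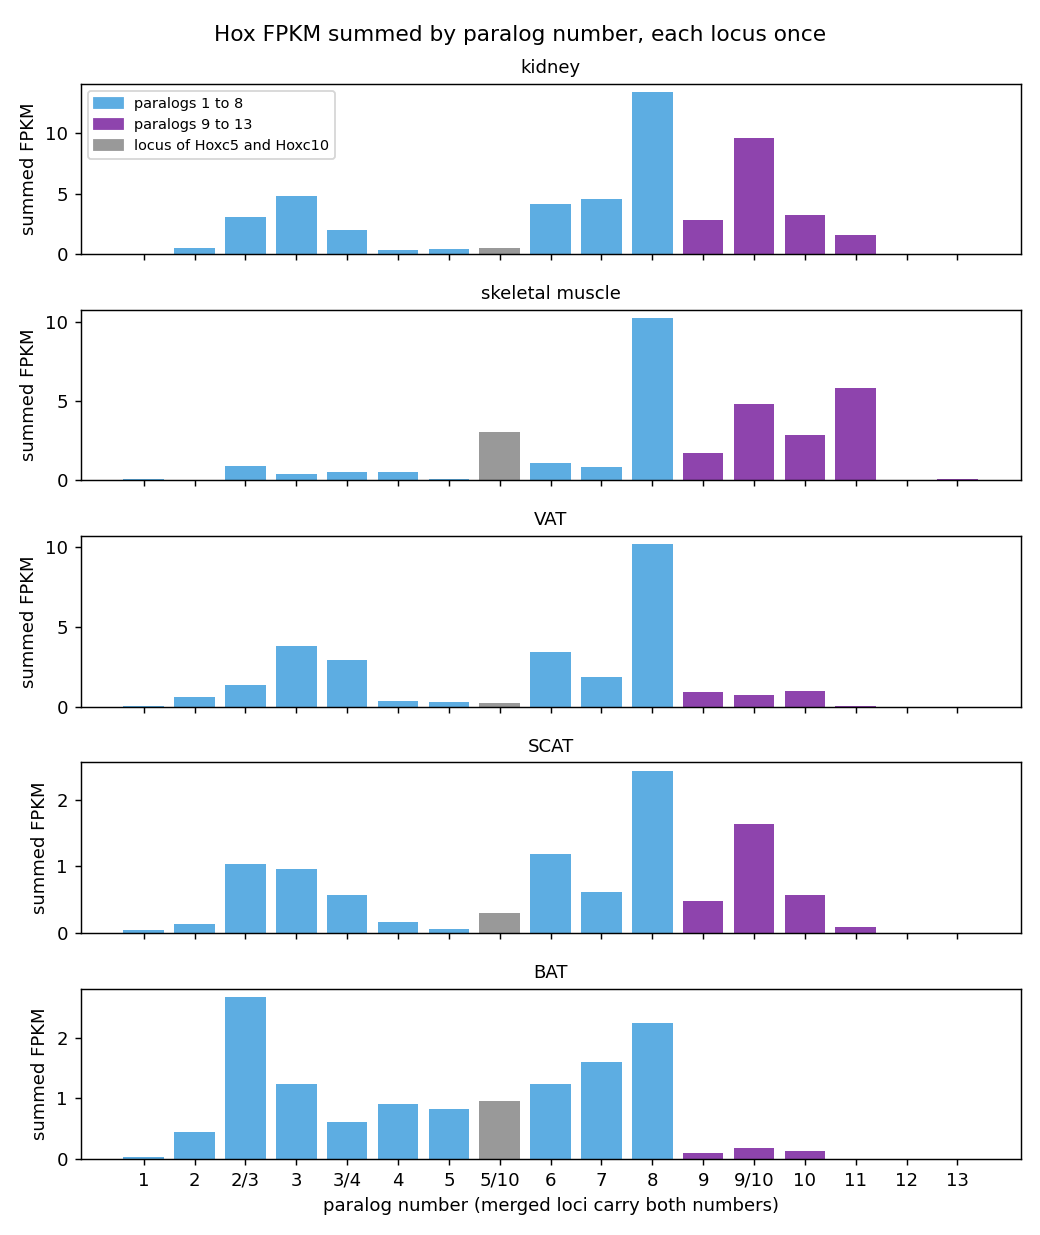
Bars give the FPKM summed over the 4 clusters for each paralog number in 5 tissues with 1 library each, from 0, on a separate axis for each tissue. Paralogs 9 to 13 are purple: they reach 5.81 FPKM at paralog 11 in muscle and 9.59 at the locus of paralogs 9 and 10 in kidney, and are close to 0 in BAT.

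The 4 clusters took different parts of the Hox RNA. In muscle HoxD gave 43.5% of the summed FPKM, HoxC 29.5%, HoxA 21.8% and HoxB 5.11%. In kidney HoxD gave 32.9%, HoxB 32.2%, HoxA 31.8% and HoxC 3.15%. HoxB was thus the least used cluster in muscle and HoxC in kidney. VAT drew 48.3% from HoxB and 33.8% from HoxD, BAT drew 43.0% from HoxA, and SCAT drew 33.6% from HoxB and 31.6% from HoxA. With loci on the annotated strands alone the order turned in VAT, to 46.7% from HoxD and 28.1% from HoxB, and in SCAT, to 36.6% from HoxA and 16.2% from HoxB. In kidney HoxA then gave 46.2%, HoxD 34.1% and HoxB 17.0%, while muscle kept HoxD (52.2%) first and BAT HoxA (47.2%).

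Which strand a Hox value comes from was then read, because every cluster also holds antisense RNAs. The library kit keeps strand, but the table has no strand column, and strands were inferred from how the table lists its loci. On this basis 8 of the 39 values came from a locus opposite to the annotated gene: Hoxa9, Hoxa10, Hoxb3, Hoxb6, Hoxb8, Hoxb9, Hoxc11 and Hoxd10. Of the 10 names with loci on both strands the opposite one was higher in 8 (80.0%), against 39.3% of 7740 protein-coding names with loci on both strands. For these 8 genes the sense transcript and an antisense RNA cannot be told apart by name.

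On the annotated strand alone, Hoxc11 in muscle fell to 0.424 FPKM from 5.57 on the opposite strand, and was no longer enriched. Hoxa10 on its annotated strand was at 0 FPKM in cortex, 0 in liver, 6.39 in kidney, 1.09 in muscle, 0.0723 in VAT, 0.260 in SCAT and 0 in BAT, and was enriched in kidney. Hoxa9 was at 5.35 FPKM in kidney and 1.38 in muscle on that strand. Kidney remained the highest library for both genes on either strand. Hoxb8 reached 0.693 FPKM in VAT and 0.636 in kidney, Hoxb6 0.963 in kidney, Hoxb9 0.425 in kidney and Hoxd10 0.925 in kidney, all below 1 FPKM. With annotated strands only, 13 Hox genes reached 1 FPKM in any tissue, 10 in kidney, 7 in VAT, 5 in muscle, 5 in BAT and 2 in SCAT. The posterior share was then 35.8% in kidney, 26.0% in muscle, 19.6% in SCAT, 5.68% in VAT and 1.04% in BAT. The order of muscle and kidney turned, while SCAT stayed above VAT and VAT above BAT. The locus of Hoxc5 and Hoxc10, at 3.04 FPKM in muscle and 0.514 in kidney, was left out here too. Annotated-strand shares that count it were not computed.

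**Figure D3:**
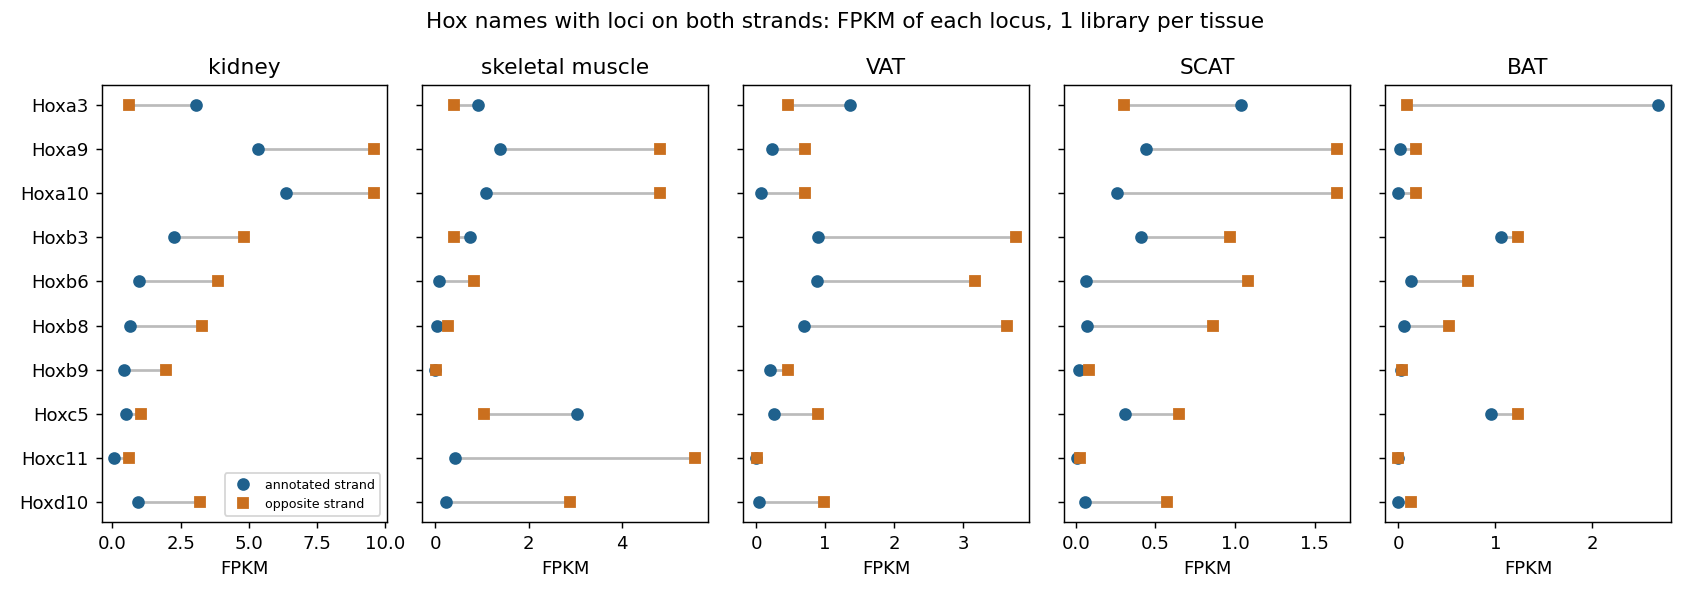
Each row is a Hox name with loci on both strands, and the points give the FPKM of the locus on the annotated strand (circle) and on the opposite strand (square) in 5 tissues with 1 library each, on a separate axis for each tissue. Squares lie right of circles in most rows, most widely for Hoxc11 in muscle (5.57 against 0.424), while Hoxa3 has the circle on the right.

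The 3 fat depots are related tissues from different places in the body, and they differed in their Hox genes. Between VAT and SCAT, 4 of the 39 genes were at least 4-fold higher in VAT with 1 FPKM or more there (Hoxb7, Hoxd3, Hoxd4 and Hoxd8), against 3.55% of protein-coding names, and 0 were 4-fold higher in SCAT, against 2.14%. Hoxd8 was at 5.10 FPKM in VAT and 0.912 in SCAT, a log2 difference of 2.36, and Hoxb7 at 1.29 and 0.201, a difference of 2.21. The locus of Hoxd3 and Hoxd4 differed by 2.17. All 10 HoxB genes were higher in VAT than in SCAT, with a median log2 difference of 1.60, whereas HoxA had 5 higher and 4 lower. Split by position, 20 of 23 genes of paralogs 1 to 8 were higher in VAT and 3 lower, against 5 higher and 6 lower of the 16 posterior genes. Such counts, also that of HoxB, include genes near 0, such as Hoxb13 at 0.00445 FPKM in VAT and 0 in SCAT. They hold a merged locus once for each Hox name, and the share of all names higher in VAT was not counted. Over all 39 members the median was 0.30, against 0.10 over 21307 protein-coding names.

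BAT and SCAT differed at the ends of the clusters. The locus of Hoxa9 and Hoxa10 was at 1.64 FPKM in SCAT and 0.185 in BAT, which made these 2 names 4-fold higher in SCAT, against 3.32% of protein-coding names. On the annotated strand neither passed 1 FPKM in SCAT, and the log2 differences of BAT to SCAT were -2.27 for Hoxa9 and -1.85 for Hoxa10. No Hox gene was 4-fold higher in BAT with 1 FPKM or more, against 8.56% of names. Hoxa5 had a log2 difference of 2.65 in favour of BAT at 0.819 FPKM, Hoxa4 of 1.95, Hoxc6 of 1.64 and Hoxa7 of 1.52. Of paralogs 1 to 8, 15 of 23 were higher in BAT and 7 lower, and of paralogs 9 to 13, 1 of 16 was higher and 8 lower. After median ratio scaling of the libraries, the counts were 11 higher and 11 lower for paralogs 1 to 8 and stayed at 1 and 8 for paralogs 9 to 13. The unscaled median over all 39 members was 0, as over 21305 protein-coding names. The 1 posterior gene that was higher in BAT is Hoxc10, whose locus is shared with Hoxc5. The summed lymphocyte and pancreas markers were high in SCAT and the muscle gene Ckm in BAT, and their part in these differences was not tested.

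Between BAT and VAT, 5 genes were 4-fold higher in VAT (Hoxb6, Hoxb7, Hoxb8, Hoxd3 and Hoxd4), against 4.04% of protein-coding names, and 0 in BAT, against 5.50%. Hoxb8 differed most among them, with 3.64 FPKM in VAT and 0.523 in BAT, a log2 difference of -2.58. Hoxd8, at -1.99, lay just short of 4-fold. HoxB had 9 of 10 and HoxD 7 of 9 genes lower in BAT than in VAT, and HoxA had 7 of 11 higher in BAT. Genes near 0 are included, such as Hoxd1 at 0.00521 FPKM in VAT and 0 in BAT. The median log2 difference of all 39 members was -0.12, against 0 over 21304 protein-coding names. On the annotated strand all 5 stayed at least 4-fold higher in VAT, with log2 differences from -2.09 for Hoxb6 to -2.35 for Hoxb8, but Hoxb6 (0.889 FPKM in VAT) and Hoxb8 (0.693) no longer reached 1 FPKM. The epididymis markers moved with VAT in this comparison and in that with SCAT, and their part was not tested.

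Scaling the libraries by the median ratio of all protein-coding names shifted BAT against SCAT by 0.59, BAT against VAT by 0.46 and VAT against SCAT by 0.13 on the log2 scale. After scaling, Hoxb3, Hoxd3, Hoxd4 and Hoxd8 changed sign between BAT and SCAT, where 12 of the 39 genes were then higher in BAT and 19 lower, in place of 16 and 15. Hoxa5 kept a log2 difference of 2.34 to SCAT and 2.42 to VAT. No gene changed sign between VAT and SCAT.

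**Figure D4:**
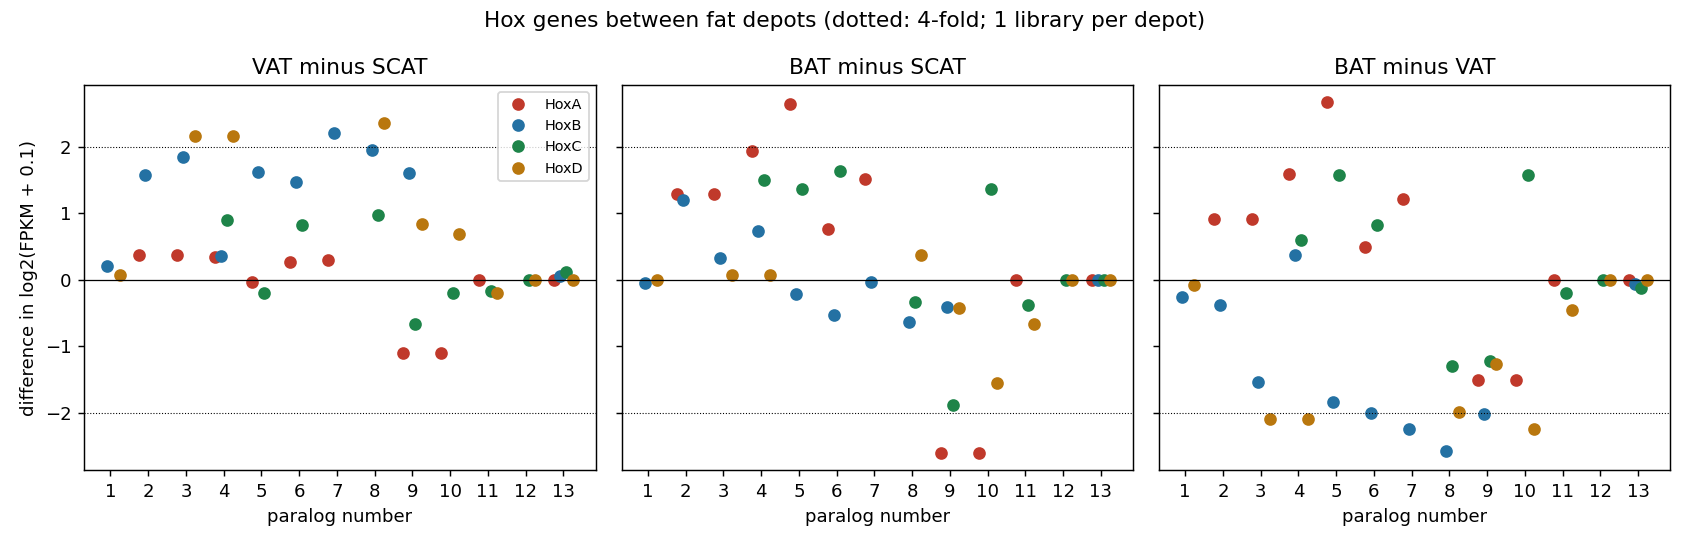
Points give the difference in log2(FPKM + 0.1) of Hox genes between fat depots against its paralog number, coloured by cluster, with 1 library per depot and dotted lines at 4-fold. HoxB points are above 0 in VAT minus SCAT, and in BAT minus SCAT Hoxa5 (2.65) is at the top and Hoxa9 with Hoxa10 (-2.61) at the bottom.

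Non-coding genes of the clusters were also examined. Of 15 listed, 14 had a locus under their name, and 5 of these reached 1 FPKM in kidney, 5 in VAT, 5 in BAT, 3 in SCAT, 3 in muscle and 0 in liver and cortex. Hoxb5os is 1 of the 5, and its value is the one used for Hoxb3, since the locus carries both names. Hoxd3os1, an antisense gene that overlaps Hoxd3, Hoxd4 and Hoxd8, was at 0.0451 FPKM in cortex, 0.0467 in liver, 38.2 in kidney, 36.8 in muscle, 24.4 in VAT, 5.97 in SCAT and 7.38 in BAT. Kidney and muscle were at like levels, as for Hoxd8, and the antisense gene exceeded Hoxd8 3.79 times in kidney, 3.73 times in muscle, 4.77 times in VAT, 6.10 times in BAT and 6.55 times in SCAT. The share of protein-coding names higher than Hoxd3os1 was 5.34% in kidney, 4.84% in VAT, 7.38% in muscle, 19.7% in SCAT and 24.2% in BAT. Hotairm1, an antisense gene of anterior HoxA that is known from myeloid cells, was at 0 FPKM in cortex, 0.486 in liver, 9.22 in kidney, 1.37 in muscle, 4.16 in VAT, 2.15 in SCAT and 7.03 in BAT. BAT came second to kidney, as for the Hoxa2 and Hoxa3 locus.

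Hoxb3os was at 7.11 FPKM in kidney, 6.50 in VAT and 0.817 in muscle, and Hoxaas3, which overlaps Hoxa3 to Hoxa7, at 5.19 in kidney and 2.38 in BAT. Hoxa11os was above 0 in kidney (0.694 FPKM) and muscle (0.482), from a locus inferred to lie on the strand of Hoxa11 rather than on its own, so its name and its strand disagree. Hotair, the antisense RNA of posterior HoxC, was above 0 in muscle only, at 0.0648 FPKM, the library with the highest Hoxc11. Mir10a, Mir10b, Mir196a-1, Mir196a-2 and Mir615 were listed at 0 in all 7 tissues. No small RNA library is described, so these zeros do not show that the mature microRNAs were absent. Of the 7 genes flanking the clusters that have a locus, 4 or 5 reached 1 FPKM in every tissue. Evx1 and Evx2, beyond the posterior ends of HoxA and HoxD, were at or below 0.00291 FPKM throughout, while Mtx2, on the other side of HoxD, ran from 11.0 in SCAT to 116 in BAT and Skap2, beside anterior HoxA, from 4.92 in cortex to 28.3 in BAT. The low Hox levels of liver and cortex thus did not extend to Mtx2, at 46.9 and 22.8 FPKM.

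**Figure D5:**
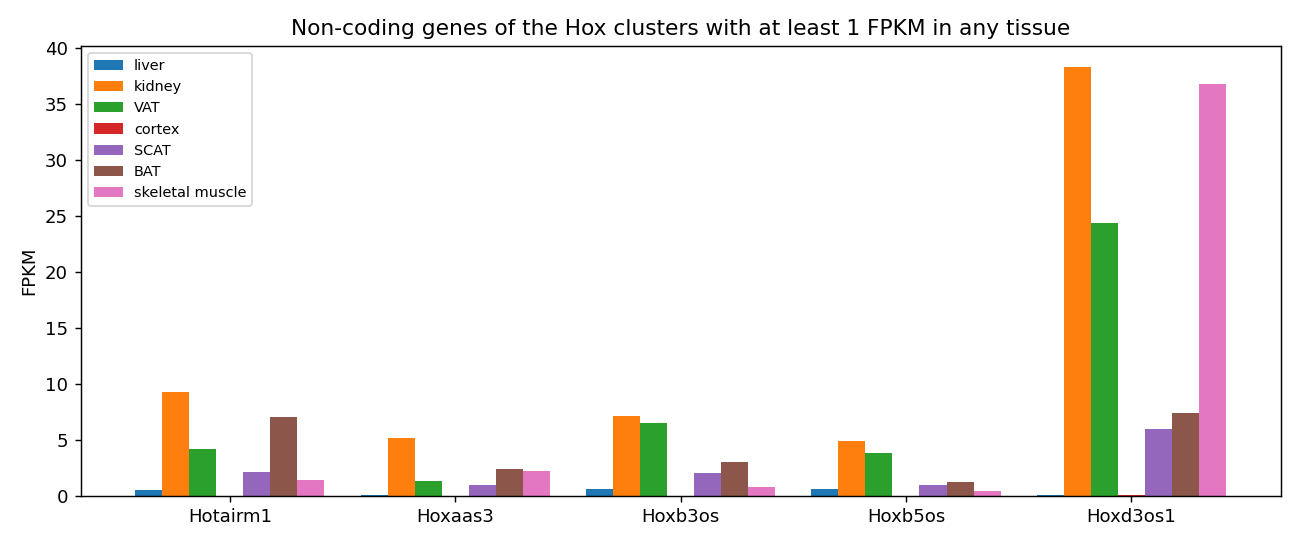
Bars give the FPKM of 5 non-coding genes of the Hox clusters in 7 tissues, 1 library each, on an axis from 0. Hoxd3os1 reaches 38.2 in kidney, 36.8 in muscle and 24.4 in VAT, and in liver and cortex the 5 genes stay below 1.

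Genes that work with or upstream of Hox genes were examined from fixed lists. Of the 9 TALE genes, whose MEIS, PBX and PKNOX proteins bind DNA together with HOX proteins, 7 reached 1 FPKM in cortex, 5 in liver, 6 in kidney, 8 in muscle, 7 in VAT, 6 in SCAT and 7 in BAT. Meis2 was highest in cortex, at 17.6 FPKM, where Hox RNA was lowest, against 1.83 in muscle, and Pbx4 (2.39 FPKM) was enriched there by the 4-fold rule. Of 16 Polycomb and trithorax genes, whose products keep Hox genes silent or active, between 13 and 15 reached 1 FPKM in every tissue, and the silencing genes Eed and Suz12 were at 15.8 and 14.0 FPKM in liver and 12.5 and 13.6 in kidney. Cbx6, at a locus merged with Npcd and Nptxr, was enriched in cortex, at 35.2 FPKM against 0.655 in liver. Cdx1, Cdx2 and Cdx4, which switch on trunk Hox genes in the embryo, were at or below 0.00383 FPKM in all tissues. Of 11 genes of retinoic acid signalling and CDX, between 2 and 5 reached 1 FPKM in each tissue. The retinoic acid receptor gene Rarb was at 2.49 FPKM in BAT, 2.21 in muscle and between 0.515 and 1.12 in the other 5. Both TALE and Polycomb genes were thus detected in liver and cortex, where no Hox gene reached 1 FPKM. The lists differ in length, so the spreads of their counts were not compared.

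Other genes that mark body regions were set beside the Hox genes. Of 7 forebrain genes 3 were enriched in cortex, among them Otx2 (1.01 FPKM) and Lhx2 (10.8), where the highest Hox value was 0.0109 FPKM. Emx1 was higher in kidney (2.33) than in cortex (0.556), Emx2 was at 0.555 in kidney, 0.470 in VAT and 0.225 in cortex, and Otx1 and Six3 stayed at or below 0.127. In muscle 4 of 9 limb and trunk genes were enriched, among them Tbx15 (55.9), Lbx1 (22.4) and Pax3 (1.26), and Pitx1, a gene of hindlimb identity, was at 0.173 FPKM there. Tbx5, a gene of forelimb identity, was highest in BAT at 1.12 FPKM, against 0.251 in SCAT, 0.0307 in VAT and 0.0408 in muscle. Pax8, a gene of the kidney and genital duct lineage, was at 18.9 FPKM in kidney and 9.07 in VAT and at or below 0.0862 in the other 5 tissues. The other kidney lineage genes did not all follow this order. Of the 6 kidney lineage genes, 5 reached 1 FPKM in kidney, 3 in VAT, 1 in liver and 0 in the other 4 tissues.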

How the data were processed

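Total RNA of 7 mouse tissues was depleted of ribosomal RNA and made into strand-specific paired-end libraries, 1 per tissue. Per the labels and the study's methods, the authors aligned reads to GRCm38 with STAR (2.6.0c), after removing ribosomal reads with Bowtie2 (2.2.9), and assembled and compared transcripts with Cufflinks (2.2.1) and Cuffdiff. The authors deposited FPKM, which corrects fragments for the length of the transcript and the size of the library, and the table lists 94339 loci in 21 comparisons. The library type given to Cuffdiff is not given in the sources used here. The table also holds the authors' fold changes and test columns, which were not used. Fragment counts are not in the columns used, so the precision of a single FPKM is unknown.

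A name with several loci took the locus with the highest maximum, and each name of a merged locus received its value. The 151 loci with status FAIL were dropped, and zeros of the 83 with LOWDATA were taken as missing, so Alb, Ckm and Myh4 in liver and Myh4 in muscle have no value. No Hox locus had either status. Prac1, Prac2, Mir196b and Acta1 were not analysed here. A few listed genes are not reported here, although counts and sums over lists include them. Strands were inferred from the listing, which goes through every chromosome from start to end 2 times. Inferred so, 75.3% of 61769 pairs of locus and name lay on the annotated strand of GENCODE, and the locus used lay on the opposite strand for 64.0% of 236 single-exon and 22.2% of 13362 several-exon protein-coding genes.

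With 1 library per tissue no test was made. Detected means at least 1 FPKM, enriched means detected and log2(FPKM + 0.1) at least 2 above each of the 6 other tissues, and a 4-fold pair difference means the same against 1 tissue. Such differences understate the change of low genes. The rules were tested on simulated data. The Hox members, the gene lists, the markers and the rules were chosen with earlier results of these data known. All Hox genes could be named, and other genes only from the lists of TALE, non-coding, flanking, retinoic acid and CDX, Polycomb and trithorax, forebrain, limb and kidney genes and markers. Of mesothelial and other epithelial markers, 4 of 5 were enriched in VAT, and stromal markers were not enriched in any tissue. Alternatives covered the minimum, pseudocount, fold, scaling, loci, strand, libraries and posterior boundary. Promoter windows are RefSeq's, on GRCm38.p6. Python 3.11.15, pandas 2.3.3, NumPy 2.4.6 and matplotlib 3.10.9 were used.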

Additional observations from a re-analysis of the deposited data

How the results depend on the processing

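Of 276 values recomputed under an alternative, 218 stayed within 1.5 times the reported one and 58 moved further. Treating LOWDATA zeros as 0, keeping FAIL loci and summing over all loci of a name moved none. The cause of a change was not tested where the alternative does not itself show it. With a minimum of 0.5 FPKM, detected Hox genes were 1 in liver, 12 in SCAT, 13 in BAT and 15 in muscle, and with 5 FPKM 3 in kidney, 1 in VAT, 0 in SCAT, 0 in BAT and 2 in muscle. Median ratio scaling gave 8 in SCAT. Annotated strands alone gave 2 in SCAT, and opposite strands alone, added after seeing the data, 8 in kidney, 3 in VAT, 3 in SCAT and 2 in BAT. Without names that share a locus there were 5 in VAT and 1 in SCAT. Enriched Hox genes in kidney rose from 0 to 1 with a pseudocount of 0.01, with annotated strands or without shared loci, and to 2 with a 2-fold rule or without the VAT library. In muscle they were 3 with a 2-fold rule and 0 with annotated strands. The share of paralogs 9 to 13 on annotated strands was 5.68% in VAT, 1.04% in BAT and 26.0% in muscle, and without shared loci 6.07% in VAT, 16.7% in SCAT and 1.22% in BAT. From paralog 8 it was 60.6% in kidney, 46.6% in VAT, 52.0% in SCAT, 21.8% in BAT and 85.0% in muscle, and from paralog 10 3.36% in liver, 11.7% in kidney, 3.94% in VAT, 7.87% in SCAT and 1.07% in BAT. Counting the Hoxc5 and Hoxc10 locus as posterior, also added later, gave 10.4% in BAT. Hox genes higher in VAT than in SCAT were 0 with a pseudocount of 1, 7 with a 2-fold rule and 2 without shared loci, and 2 were higher in SCAT with a 2-fold rule. Higher in BAT than in SCAT were 1 with a minimum of 0.5 FPKM or none and 3 with a 2-fold rule, and higher in SCAT than in BAT 0 with a pseudocount of 1, with annotated strands or without shared loci. Higher in BAT than in VAT was 1 with a minimum of 0.5 FPKM, with none or with a 2-fold rule, and higher in VAT than in BAT were 0 with a pseudocount of 1, 8 with a 2-fold rule, 3 with annotated strands and 3 without shared loci. No paired analysis was possible because a single library per tissue leaves no replicates to pair. The unknown depth limits what can be said of values under 1 FPKM.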
